A study of Mus musculus with 4 samples.

Results

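Mesothelial identity genes are the genes by which pathologists and developmental biologists recognise mesothelium, the flat epithelium that lines the pleura, the pericardium and the peritoneum. The 9 genes described here are Msln, Muc16, Pdpn, Upk3b, Lrrn4, Wt1, Bnc1, Calb2 and Thbd. A gene probe was assigned to them when its RefSeq accession belonged to 1 of the 9. This gave 9 probes for 8 genes out of 26581 named probes for 20144 genes, with 2 probes for Pdpn, 1 for each of the other 7 and none matched for Muc16. The genes are known markers of the tissue, and no threshold on these arrays was used to choose them. Earlier results of these data were, however, known when they were chosen.

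Messenger RNA was measured on 4 one-colour Agilent mouse arrays of 1 slide. The mesothelioma line AB1-HA, from BALB/c mice, carries influenza hemagglutinin as an added antigen. The other line, LLC or 3LL, is the Lewis lung carcinoma, labelled C57BL6. Either line was kept for 24 h in vehicle or in interferon gamma (IFN-γ), the cytokine that T cells and natural killer cells use to raise antigen presentation. Each of the 4 groups was 1 array, so no difference below has a replicate check and no test was run, and line, strain and tumour type cannot be told apart. Signals are background-subtracted intensities from the scanner software, each given with the software's own error estimate for that spot. Differences are log2 differences after each array was scaled to the 75th percentile of its gene probes, and the words higher and lower are used for counts at 2-fold or more, which is a threshold of size.

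On each array 22664 to 22947 gene probes were well above background by the scanner's mark, of 39366 to 39396 probes with a usable spot, and 0 spots were saturated. Repeat spots of a probe differed between arrays with a median SD of 0.041 to 0.063 log2 units over the 4 pairs of arrays compared, a measure of spot noise that leaves out culture and labelling. The treatment was visible in both lines through Irf1, a transcription factor induced by IFN-γ, which was higher with IFN-γ by 4.44 (AB1-HA) and 4.43 (LLC) log2 units. By its dimmer probe, not well above background with vehicle, Irf1 was higher by at least 3.23 (AB1-HA) and 1.71 (LLC).

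Mesothelial cells are unusual in joining epithelial features, such as keratins and an apical glycocalyx, with a mesodermal origin. Mesothelin (Msln) is a GPI-anchored surface protein that binds the mucin MUC16, and podoplanin (Pdpn) is a mucin-like membrane glycoprotein that links to the actin cortex through ezrin and activates platelets through CLEC-2. Upk3b encodes a uroplakin, a membrane protein of the urothelium and the mesothelium, and Lrrn4 a leucine-rich repeat membrane protein. Wt1 and Bnc1 are zinc finger transcription factors, calretinin (Calb2) is a calcium-binding protein, and thrombomodulin (Thbd) is the thrombin receptor that turns thrombin toward activation of protein C. In diagnostic pathology, calretinin, WT1, podoplanin and thrombomodulin are used to separate mesothelioma from adenocarcinoma of the lung.

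With the scanner's background subtraction, Pdpn lay furthest to the lower side in LLC among the 9 genes and Bnc1 furthest to the higher side. Msln, at −8.56 with vehicle, was further from 0 than the bound of 7.71 for Bnc1, but its window was not used here. The sequences just upstream of Pdpn and Bnc1, genes each dim in 1 line, are shown first. Both are RefSeq sequences of mouse build GRCm38.p6 covering the 250 bases before the annotated start, read 5′ to 3′ in the direction of the gene, which lies on the minus strand in both cases. Pdpn covers chr4:143299565-143299814 and Bnc1 covers chr7:81992300-81992549, and capitals mark each CpG dinucleotide.
Pdpn: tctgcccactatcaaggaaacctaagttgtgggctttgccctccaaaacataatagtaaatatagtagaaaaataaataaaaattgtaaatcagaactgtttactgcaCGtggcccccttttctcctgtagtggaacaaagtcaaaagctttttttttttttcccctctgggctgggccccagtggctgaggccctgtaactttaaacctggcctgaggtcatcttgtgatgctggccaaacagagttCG
Bnc1: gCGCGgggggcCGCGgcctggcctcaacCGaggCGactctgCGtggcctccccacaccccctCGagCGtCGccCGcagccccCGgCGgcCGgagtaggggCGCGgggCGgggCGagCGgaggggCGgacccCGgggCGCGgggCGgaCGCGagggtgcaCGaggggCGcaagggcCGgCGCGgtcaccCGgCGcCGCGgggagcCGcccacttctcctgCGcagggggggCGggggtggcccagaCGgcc

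The Pdpn window held 2 CpG dinucleotides and the Bnc1 window 39, where the median over 32851 RefSeq promoter windows of that length was 6. Fewer CpG dinucleotides than in the Bnc1 window were found in 98.4% of those windows, and fewer than in the Pdpn window in 18.8%. The GC box GGGCGG, searched on both strands, matched 5 times in the Bnc1 window, at 146, 129, 110, 47 and 23 bases before the start, and not in the Pdpn window, while 32.7% of all windows held at least 1 match. Neither window held the IFN-γ activated site TTCNNNGAA, which 7.02% of all windows held, the interferon-stimulated core GAAANNGAA (7.13%), the AP-1 site TGANTCA (6.75%), the TEAD site GGAATG (12.6%) or TATAAA (12.4%), all searched on both strands. Of the other genes with a window in the table, Upk3b and Lrrn4 each held 1 TEAD match and none of the other motifs, at 241 and 196 bases before their starts, and Muc16 held none of the 6. These matches describe letters and not binding, and the arrays do not measure either. Windows for Msln, Wt1, Thbd and Calb2 were not used here.

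**Figure D1:**
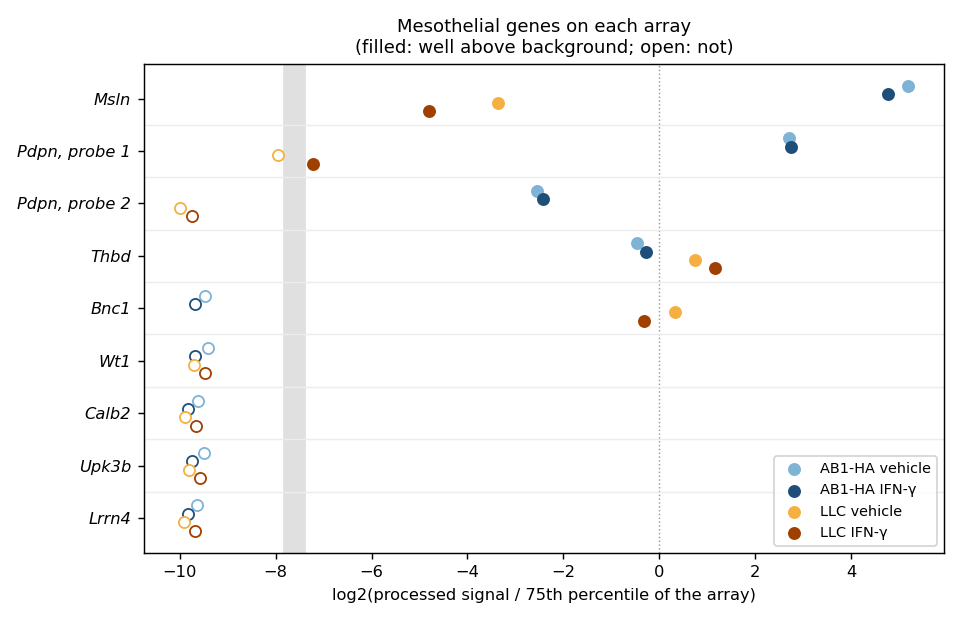
Signal of each probe on each of the 4 arrays, as log2 of the processed signal over the array's 75th percentile (x axis), 1 row per probe; filled points were well above background and open points were not, and the grey band spans the lowest signal of any probe well above background on the 4 arrays. Values should be compared along a row and not between rows, since probes differ in efficiency; Msln and Pdpn lay far to the right in AB1-HA, Bnc1 in LLC, and Wt1, Calb2, Upk3b and Lrrn4 lay left of the band on all 4.

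Among the 9 genes, 4 were well above background on at least 1 array and 2 of those, Msln and Thbd, on all 4. Of 20089 named genes with a usable spot on all 4 arrays, 12002 were well above background on all 4. Counted per array, 57.5% to 58.3% of all gene probes were. For counts of genes not well above background on any array, here and in the lists below, no share over all genes is given. Pdpn was well above background on both AB1-HA arrays and, by its brighter probe, on the LLC array with IFN-γ. Bnc1 was well above background on both LLC arrays and on neither AB1-HA array. Wt1, Calb2, Upk3b and Lrrn4 were not well above background on any array, with intensities of 1.55 to 2.04 against 7.01 to 8.26 for the dimmest probe that was. The mesothelioma line was therefore below the detection mark at 5 of the 8 genes with a probe, and the lung carcinoma line at 4 of them with IFN-γ and 5 with vehicle.

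The labels were also checked with a marker set that adds keratins and Upk1b and leaves out Pdpn and Thbd, which endothelium makes too. Of its 10 markers with a probe (Msln, Wt1, Upk3b, Lrrn4, Bnc1, Calb2, Krt8, Krt18, Krt19 and Upk1b), 4 were well above background in AB1-HA with vehicle, namely Msln and the simple epithelial keratins Krt8, Krt18 and Krt19. With IFN-γ it was 3 of them, all but Krt8. In LLC, 5 of the 10 were well above background on both arrays: Msln, Bnc1 and the same 3 keratins. Over all gene probes, 57.5% to 58.3% were well above background on each array, so these counts describe the 10 markers and do not tell the lines apart.

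Msln, the surface antigen, had an intensity of 50299 ± 5029.9 (scanner error) in AB1-HA with vehicle and 38827 ± 3883 with IFN-γ. In LLC it was 154 ± 15.5 with vehicle and 50.1 ± 5.27 with IFN-γ, both still well above background. Both AB1-HA arrays were thus far above both LLC arrays, and within each line the IFN-γ array was the lower one. Between the vehicle arrays Msln was 378-fold lower in LLC, a log2 difference of −8.56 ± 0.20, and at least 32 of the 13832 genes with a value were further to the lower side, since some of the others are bounds. Between the IFN-γ arrays it was 765-fold lower (−9.58 ± 0.21), with at least 16 of 13890 genes further down. In bulk RNA, fewer cells with a transcript and less of it per cell cannot be told apart, here or below.

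Pdpn, the CLEC-2 ligand, had an intensity of 8991 ± 899 in AB1-HA with vehicle and 9458 ± 946 with IFN-γ by its brighter probe. In LLC the same probe read 6.48 ± 3.31 with vehicle, not well above background, and 9.44 ± 3.34 with IFN-γ, which was. The AB1-HA arrays were level with each other, and both LLC arrays lay at or near the detection limit. Pdpn was at least 1485-fold lower in LLC with vehicle, a bound set from the array's lowest signal well above background, 7.01. The error of the Pdpn spot there reaches past that level, so with spot error counted the difference could be smaller. With IFN-γ Pdpn was 989-fold lower (−9.95 ± 0.53), from an LLC signal just past the detection mark. The dimmer Pdpn probe read 236 ± 23.7 and 263 ± 26.4 in AB1-HA and was not well above background in LLC, which gave bounds of at least 39.0-fold and 35.2-fold in the same direction.

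Bnc1, the basonuclin transcription factor of basal keratinocytes, germ cells and mesothelium, had the opposite pattern. Its intensity was 1997 ± 199.7 in LLC with vehicle and 1116 ± 112 with IFN-γ, and 1.95 and 1.72 in AB1-HA, neither well above background. Both LLC arrays were thus far above both AB1-HA arrays. The gene was at least 209-fold higher in LLC with vehicle and at least 150.2-fold higher with IFN-γ.

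Thbd, the thrombin receptor, was present in both lines. Its intensity was 1003 ± 100.3 in AB1-HA with vehicle, 1168 ± 117 with IFN-γ, 2671 ± 267 in LLC with vehicle and 3134 ± 313 with IFN-γ. Both LLC arrays were above both AB1-HA arrays, and the spots' error ranges did not meet. The difference was 2.30-fold (1.20 ± 0.20) with vehicle and 2.72-fold (1.44 ± 0.20) with IFN-γ, and at least 1898 and 1470 genes respectively had a larger one on the higher side. This was the smallest gap between the lines among the 4 genes with a value.

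Counted over the list, each of the 4 genes with a value was past 2-fold between the lines, 2 higher and 2 lower in LLC, on the vehicle arrays and again on the IFN-γ arrays. Over all genes with a value, 16.5% were higher and 16.0% lower in LLC with vehicle, and 15.4% and 13.3% with IFN-γ. The median of the 4 genes was −3.68 with vehicle and −4.07 with IFN-γ, where the medians over all genes were −0.05 and 0.03. A median of 4 values with 2 on each side describes no shared direction. Pdpn with vehicle and Bnc1 in both comparisons entered it as bounds, and restricting the count to genes well above background on all 4 arrays left 2, Msln lower and Thbd higher. With normexp background correction, whose offset compresses dim signals, the vehicle differences were −7.96 for Msln, −6.95 for Pdpn, 3.98 for Bnc1 and 1.22 for Thbd. The differences between the IFN-γ arrays were then −8.15 for Msln, −6.51 for Pdpn, 3.78 for Bnc1 and 1.36 for Thbd.

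**Figure D2:**
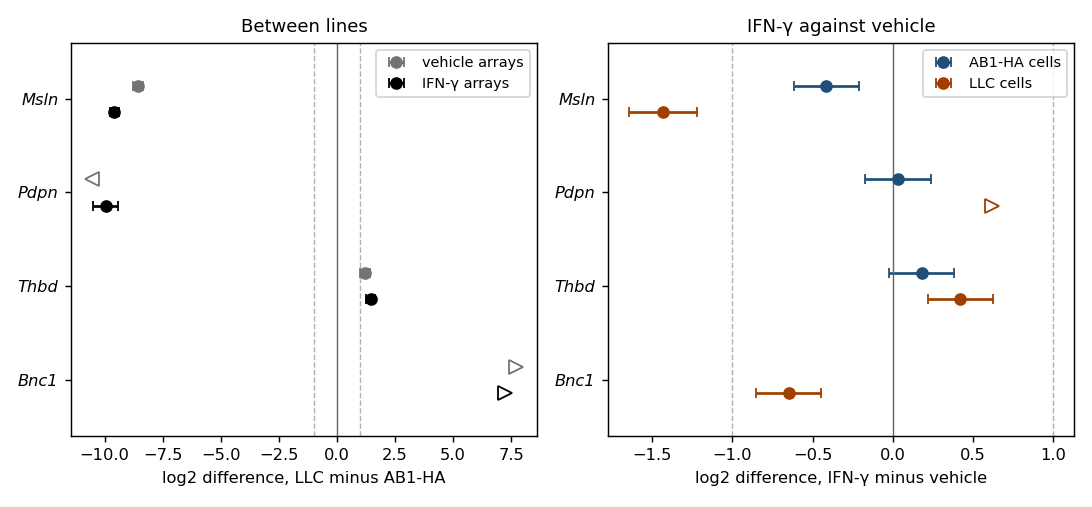
Log2 differences of the 4 genes with a value, LLC minus AB1-HA on the left and IFN-γ minus vehicle on the right; points are measured differences with bars of 1 scanner error, open triangles are bounds that point toward the larger difference, and dashed lines mark 2-fold. The scales of the panels differ: between the lines Msln and Pdpn lay below −8 and Bnc1 above 7, while among the IFN-γ differences Msln in LLC was the one past 2-fold.

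The second question was whether these genes differed with IFN-γ within each line. In AB1-HA, 0 of the 3 genes with a value were 2-fold apart, where 2.98% of 13189 genes were higher and 1.17% lower with IFN-γ. Msln was lower with IFN-γ by 1.33-fold (−0.41 ± 0.20), a size that at least 1266 genes exceeded on the lower side. Pdpn was at 0.03 ± 0.20, and at 0.12 ± 0.20 by the dimmer probe. Thbd was at 0.18 ± 0.20. The differences of Pdpn and Thbd were within 1 scanner error of 0, and that of Msln was about 2 of them away. The median of the 3 genes was 0.03, and that of all genes was −0.08.

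In LLC, 1 of the 4 genes with a value was lower with IFN-γ and 0 were higher, where 1.46% of 13413 genes were lower and 3.68% higher. That gene was Msln, at 2.70-fold lower (−1.43 ± 0.21), and at least 53 genes lay further to the lower side. This call depends on the background correction: with normexp, which adds an offset of 50 intensity units, about the signal of Msln on the LLC IFN-γ array, the difference was −0.62. Bnc1 was lower by 1.57-fold (−0.65 ± 0.20), short of the threshold. Thbd was higher by 1.34-fold (0.42 ± 0.20), also short of it. Pdpn had a bound of at least 1.54-fold higher, but its readings of 6.48 and 9.44 lay within the sum of their errors. The median of the 4 genes was −0.11, and that of all genes −0.06.

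The share of higher genes among all genes 2-fold apart in LLC also moved with the scaling, from 71.6% here to 55.5% with array medians, 60.0% with quantile and 55.7% with cyclic loess normalization, so the background of lower genes is larger under those scalings. With array medians the median over all genes moved by −0.14 in LLC, which is small beside the Msln difference. Under the other scalings alone and the authors' value table, Msln stayed past 2-fold lower.

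Set against each other, the IFN-γ effects of the lines could be compared for the 2 genes measured on all 4 arrays, of which 1 was past 2-fold. Msln was lower with IFN-γ by more in LLC than in AB1-HA, with a difference of effects of −1.02 ± 0.29 (2.03-fold) at the edge of the threshold, and of −0.19 with normexp. Thbd differed by 0.24 ± 0.29, within 1 scanner error of 0. Over 12002 genes, 2.54% had an effect at least 2-fold higher in LLC and 1.69% at least 2-fold lower. The share of higher genes among those calls was 60.0% here and 39.9%, 47.0% and 36.0% with array median, quantile and loess scaling. The medians were −0.39 for the 2 genes and 0.03 for all genes.

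**Figure D3:**
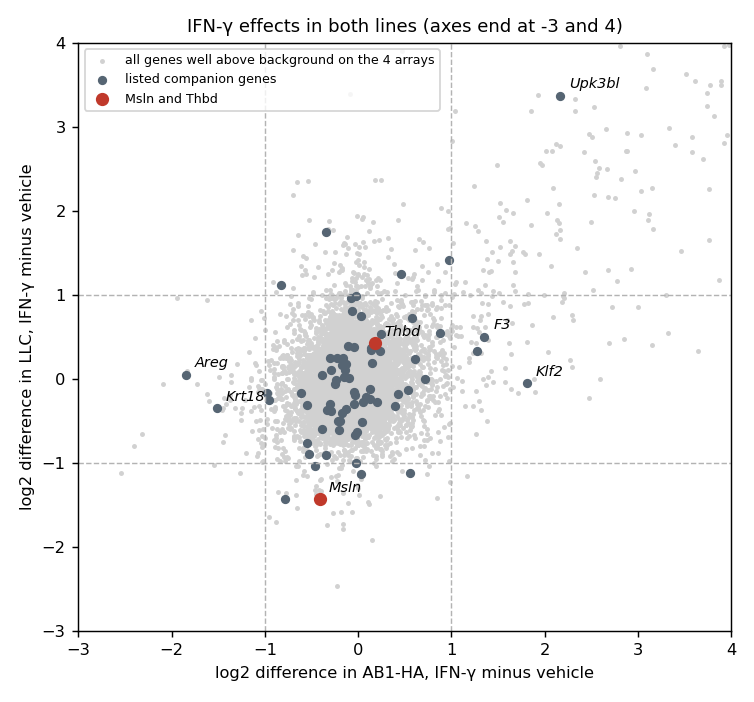
IFN-γ minus vehicle in AB1-HA (x axis) against LLC (y axis), in log2 units, for 12002 genes that every array measured well above background, with 73 genes of the companion lists in dark grey and Msln and Thbd in red; 52 genes lie beyond the axes, which end at −3 and 4, and dashed lines mark 2-fold. Msln lies at −0.41 and −1.43, below the 2-fold line for LLC alone, and Thbd at 0.18 and 0.42 lies near the centre, while Upk3bl stands at 2.16 and 3.37.

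The genes whose 4 values, centred on their own mean, lay nearest to those of Msln among 12001 others were Ccn2, the matricellular growth factor CTGF, and Tmem171, with root mean square distances of 0.36 and 0.38 log2 units over the 4 arrays. Centred values of Ccn2 were 4.42 and 4.60 in AB1-HA and −4.20 and −4.81 in LLC, against 4.74, 4.33, −3.82 and −5.25 for Msln, so Ccn2 and Msln shared the gap between the lines and Ccn2 was not lower with IFN-γ in AB1-HA. For Thbd, the nearest were the nuclear receptor Nr1i3 at a distance of 0.012 and the homeobox gene Msx1 at 0.050. With 4 arrays such likeness describes these arrays only.

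Other genes used as mesothelial markers did not share 1 direction with Msln. Of 24 listed, 9 were not well above background on any array (Upk1b, Gpm6a, Nkain4, Aldh1a2, Rspo1, Dmkn, Itln1, Has1 and Sulf1). Per array, 13 and 12 of the 24 were in AB1-HA and 14 and 15 in LLC (vehicle, then IFN-γ), against 57.5% to 58.3% of all gene probes. Of the 15 with a value, 4 were higher and 3 lower in LLC with vehicle, with a median of −0.28 (−0.05 over all genes), and 4 were higher and 4 lower with IFN-γ, with a median of −0.18 (0.03 over all genes). The shares over all genes were 16.5% higher and 16.0% lower with vehicle, and 15.4% and 13.3% with IFN-γ. Krt18, a keratin of simple epithelia, read 239 and 85.9 in AB1-HA (vehicle, then IFN-γ) and 134098 and 92310 in LLC, a gap of 8.92 with vehicle (8.28 with normexp) on the side of Bnc1. Krt8, its filament partner, was 172-fold higher in LLC with vehicle, or at 7.43 on the log2 scale (5.55 with normexp). Efemp1 (fibulin-3), a matrix protein studied as a mesothelioma marker in blood, had the direction of Msln and was 11.3-fold lower in LLC with IFN-γ.

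With IFN-γ, 2 of 13 of these markers were lower in AB1-HA and 0 higher (median −0.29, −0.08 over all genes). Both were keratins, Krt18 at −1.52 and Krt8 at least 6.49-fold lower, and under normexp they were at −0.81 and −0.70, short of 2-fold. In LLC, where Msln was lower, 1 of 15 was higher, the protease inhibitor Slpi (1.25), and 1 lower, the TAM receptor ligand Gas6 (−1.09, or −0.83 with normexp), with a median of −0.35 (−0.06 over all genes). Among all genes, 2.98% were higher and 1.17% lower with IFN-γ in AB1-HA, and 3.68% and 1.46% in LLC.

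Transcription factors of the mesothelium and the coelomic lining other than Wt1 and Bnc1 also differed in both directions between the lines. Of 15, Tcf21 and Tbx20 were not well above background on any array, and of the 13 with a value 5 were higher and 2 lower in LLC with vehicle (median 0.60), and 4 and 2 with IFN-γ (median 0.30). Over all genes, 16.5% were higher and 16.0% lower with vehicle (median −0.05), and 15.4% and 13.3% with IFN-γ (median 0.03). Sox9 (7.67, or 4.47 with normexp) and the mesodermal factor Osr1 (3.48, or 1.85) were higher in LLC with vehicle, as Bnc1 was. The epicardial factor Tbx18, with intensities of 933 and 732 in AB1-HA against 31.9 and 18.5 in LLC (a difference of −5.08 with vehicle, or −3.04 with normexp), and Gata4 (−2.33) were lower, as Msln and Pdpn were. None of the 13 was 2-fold apart with IFN-γ in either line, with medians of −0.17 in AB1-HA and −0.19 in LLC. Of all genes, 2.98% were higher and 1.17% lower with IFN-γ in AB1-HA, and 3.68% and 1.46% in LLC.

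The next list held 24 binding partners and pathway genes of the 9 proteins. F2 (prothrombin) and Wnt4 were not well above background on any array, and of the 22 with a value 5 were higher and 2 lower in LLC with vehicle (median 0.41), and 7 and 2 with IFN-γ (median 0.52). The shares over all genes were 16.5% higher and 16.0% lower with vehicle (median −0.05), and 15.4% and 13.3% with IFN-γ (median 0.03). Around thrombomodulin, Proc, which encodes protein C, was 12.9-fold higher in LLC with vehicle, tissue factor F3 8.16-fold and the plasminogen activator Plat 7.58-fold, where Thbd was 2.30-fold higher. With normexp the differences of Proc and Plat were 1.21 and 2.30 on the log2 scale, and Proc was short of 2-fold between the IFN-γ arrays (0.74). Wtip, a LIM protein named for its binding to WT1, was at least 13.5-fold higher in LLC with vehicle and 13.0-fold with IFN-γ, but at 0.83 and 1.66 with normexp, while Wt1 itself was below the mark on every array.

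With IFN-γ, 2 of 21 of these partner genes were higher and 1 lower in AB1-HA, with a median of −0.10. In that line 2.98% of all genes were higher and 1.17% lower. Klf2, a transcription factor known to raise thrombomodulin in endothelium, was at 1.81 and F3 at 1.35 (1.43 by its other probe), while Thbd was at 0.18 in the same cells, and the EGFR ligand Areg was at −1.85. In LLC, 1 of 22 was higher and 2 lower (median 0.02), where 3.68% of all genes were higher and 1.46% lower. Plat and Proc were at −1.43 and −1.13 (Proc at −0.64 with normexp), where Thbd was at 0.42. Clec1b, the gene of the podoplanin receptor CLEC-2, was at 1.41, but at 0.45 with normexp and 0.61 as a mean over its probes. The other Clec1b probes had no value in that comparison.

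Family relatives of the 9 genes showed where a paralogue differed from the gene itself. Of 17, 8 were not well above background on any array (Calb1, Upk1b, Upk2, Upk3a, Muc4, Lrrn2, Clec14a and Mslnl). Per array, 8 and 9 of the 17 were in AB1-HA and 7 and 7 in LLC (vehicle, then IFN-γ), against 57.5% to 58.3% of all gene probes. Of the 8 with a value between the vehicle arrays, 6 were lower and 1 higher in LLC (median −1.64), and of 9 between the IFN-γ arrays, 5 were lower and 1 higher (median −1.83). Over all genes, 16.0% were lower and 16.5% higher with vehicle (median −0.05), and 13.3% and 15.4% with IFN-γ (median 0.03). Bnc2, the paralogue of Bnc1, had intensities of 138 and 186 in AB1-HA and 22.7 and 15.8 in LLC, 7.02-fold lower in LLC with vehicle (a log2 difference of −2.81, or −1.10 with normexp), the reverse of Bnc1. Between the IFN-γ arrays it was at −3.53, or −0.97 with normexp. Lrrn1 and Lrrn3, relatives of Lrrn4, were lower in LLC with IFN-γ by at least 10.8-fold (−0.79 with normexp) and by 5.27-fold, whereas Lrrn4 was below the mark throughout.

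Upk3bl, a uroplakin 3B-like gene, had intensities of 509 and 2338 in AB1-HA and 24.2 and 219 in LLC, with vehicle and IFN-γ in that order. It was higher with IFN-γ by 4.47-fold in AB1-HA and 10.3-fold in LLC, and its other probe gave 2.15 and 3.35 on the log2 scale beside 2.16 and 3.37. With normexp the value in LLC was 1.45. Upk3b itself read 1.65 to 1.91 on the 4 arrays. In the family list 2 of 9 genes were higher with IFN-γ in AB1-HA (Upk3bl and Lrrn1, the latter by 1.98, or 0.75 with normexp) and 0 lower, with a median of 0.03. In LLC 2 of 7 were higher, Upk3bl and the WT1-related zinc finger gene Egr1 (1.11, or 0.97 with array medians), and 1 was lower (Lrrn3, 2.01-fold, or −0.93 with normexp), with a median of 0.74. Among all genes, 2.98% were higher and 1.17% lower with IFN-γ in AB1-HA, and 3.68% and 1.46% in LLC.

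**Figure D4:**
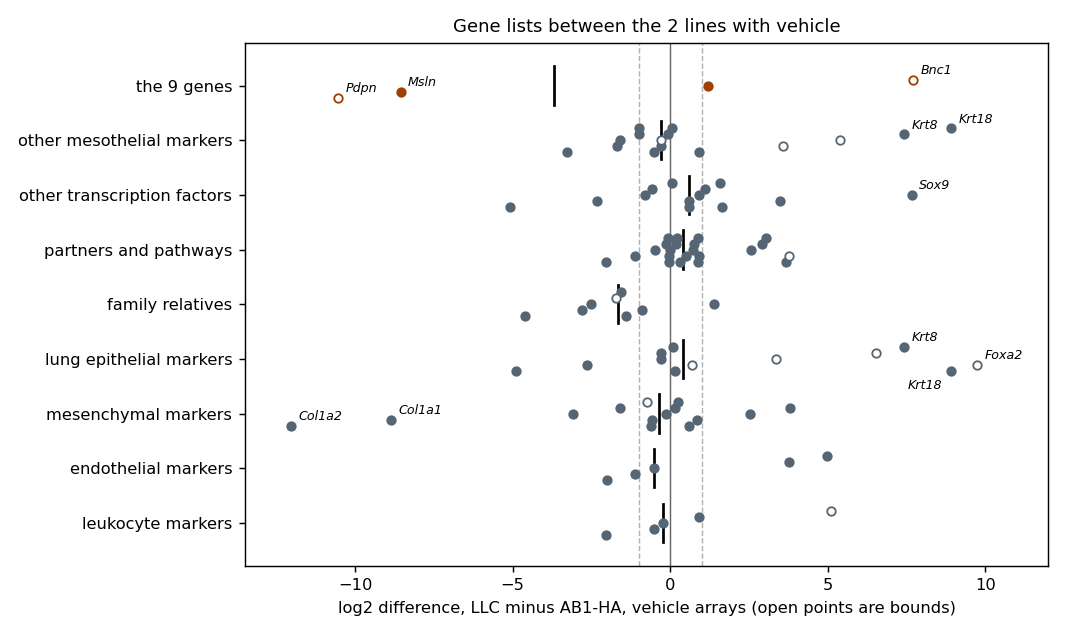
Log2 difference between LLC and AB1-HA on the vehicle arrays (x axis) for every gene with a value among the 9 genes and in 8 companion lists (rows); filled points were measured on both arrays, open points are bounds, vertical bars are list medians, dashed lines mark 2-fold, and genes beyond 7 either way are named. Each list had genes on both sides of 0, and some genes stand in more than 1 list; Col1a1 and Col1a2 lay further on the lower side than Msln, and Krt8, Krt18, Sox9 and Foxa2 lay above 7 on the higher side, as Bnc1 did.

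Markers of other cell types were read beside the 9 genes. Of 19 lung epithelial markers with a probe, 8 and 7 were well above background on the AB1-HA arrays and 12 and 10 on the LLC arrays (vehicle, then IFN-γ), and Nkx2-1, Sftpa1, Sftpb, Sftpc, Cdh1, Epcam and Foxj1 were not on any. Sftpd, another surfactant gene, was well above background on both AB1-HA arrays and on the LLC array with vehicle. Of the 12 with a value, 5 were higher and 2 lower in LLC with vehicle (median 0.42), the furthest being the endodermal factor Foxa2, by at least 852-fold (6.04 on the log2 scale with normexp). Krt18 and Krt8, which also stand in the list of other mesothelial markers, were among the 5 higher. For this and the next lists, the shares over all genes were 16.5% higher and 16.0% lower in LLC with vehicle. With IFN-γ they were 2.98% higher and 1.17% lower in AB1-HA, and 3.68% and 1.46% in LLC. Of 16 mesenchymal markers, 14, 13, 13 and 12 were well above background on the 4 arrays, and of the 14 with a value 4 were lower and 2 higher in LLC with vehicle (median −0.37). Col1a2, a chain of type I collagen, was the furthest and read 62880 and 58036 in AB1-HA and 17.5 and 15.5 in LLC, a difference of −12.02 with vehicle (−9.12 with normexp) in the direction of Msln and Pdpn. Acta2, furthest on the higher side, read 81.0 and 198 in AB1-HA and 1274 and 1406 in LLC, a difference of 3.79 with vehicle. With IFN-γ in LLC, where Msln was lower, 3 of 13 mesenchymal markers were lower too (median −0.21): Col1a1 by at least 3.74-fold (−0.56 with normexp), Pdgfrb at −1.12 (0.29 with normexp) and Col3a1 at −1.04. The part of these markers in the differences of Msln and Pdpn was not tested. Pdpn and Thbd are also made by endothelium. Of 15 endothelial markers, 8 were not well above background on any array (Cdh5, Flt4, Tek, Emcn, Robo4, Prox1, Lyve1 and Erg). Pecam1, Kdr, Flt1, Esam and Eng were on all 4, Tie1 only in AB1-HA with IFN-γ and Vwf only in LLC with IFN-γ. Per array, 5 and 6 of the 15 were in AB1-HA and 5 and 6 in LLC, against 57.5% to 58.3% of all gene probes. None of the endothelial markers with a value was 2-fold apart with IFN-γ in either line. Between the vehicle arrays 2 of 5 endothelial markers were higher in LLC, Flt1 (4.96, or 4.31 with normexp) and Eng (3.76, or 2.99), and 2 lower, Esam (−2.02, or −0.75 with normexp) and Kdr (−1.13, or 0.067 as a mean over its probes), with a median of −0.50. The other Kdr probe had no value in that comparison. Of 11 leukocyte markers with a probe, 4 were well above background on each AB1-HA array and 5 on each LLC array, namely Cd3e, Itgam, Csf1r and Cd14 on all 4 and Itgax in LLC alone. Ptprc, the gene of the pan-leukocyte protein CD45, Cd79a, Adgre1, Lyz2 and Ncr1 were among those not on any. With vehicle 1 of 5 was higher in LLC, Itgax by at least 34.5-fold (2.22 with normexp), and 1 lower, Csf1r (−2.03, but 0.29 by its other probe), with a median of −0.23. With IFN-γ, 0 of 4 were 2-fold apart in AB1-HA, and in LLC 1 of 5 was higher, Csf1r (1.74, but 0.28 by its other probe and 0.92 as a mean over probes), with a median of 0.19.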

How the data were processed

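Total RNA of 4 samples was read on 4 one-colour arrays (Cy3), 1 per group, per the labels, which do not state whether a sample pools several cultures. The deposited intensity values are processed signals that Agilent Feature Extraction 10.7.1.1, per the file headers, made by subtracting the background, with no step between arrays. A table of the authors' log2 values served as an alternative. Its making is not stated in the labels. It correlated at 0.999 per array with scanner signals scaled to their 75th percentile with each probe centred on its median, in the direction of the signal, and its column medians were −0.13 to 0.11.

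Each intensity was divided by the 75th percentile of the gene probes on its array and taken as log2. Control spots and outlier spots (166 to 201 an array) were left out, and a probe counted as well above background where at least 0.5 of its spots carried the mark. Accessions were matched without version to RefSeq names of assembly GRCm38.p6; the array annotation is of mm9, so no probe coordinates are given, and 12848 of 39429 probes stayed unnamed. For the 5370 genes with several probes the brightest was used. A gene dim on 1 of 2 arrays has a bound, set from its own signal there or from the array's lowest signal well above background, whichever was higher. Spot error is not counted in a bound. A gene dim on both has no value. With 1 array a group, depth is that of single spots and no p-value is given.

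The 9 genes and the companion lists were chosen with earlier results of these data known. Of each list, the 4 genes with the largest differences of at least 2-fold per comparison could be named, with the 2 genes nearest in pattern to Msln and to Thbd, and Irf1, B2m and Gbp2 as a check of the treatment; 1 listed gene is not reported here. Alternatives were array median, quantile and cyclic loess scaling, normexp (offset 50, on median spot signals, since mean signals were not used here), the authors' table, no background filter, only genes well above background on all arrays, the mean over probes, and outlier spots kept. Python 3.11.15 (numpy 2.4.6, pandas 2.3.3, matplotlib 3.10.9) and R 4.3.3 with limma 3.58.1 were used.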

Additional observations from a re-analysis of the deposited data

How the results depend on the processing

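Of 145 values of Msln, Pdpn, Bnc1 and Thbd under the 9 alternatives, 142 kept their direction and their side of 2-fold. The exceptions were under normexp: Msln in LLC with IFN-γ (−0.62), its difference of effects (−0.19), and Pdpn in AB1-HA with IFN-γ, whose small value turned to −0.01. The number of the 9 genes that were 2-fold apart thus fell to 0 under normexp for IFN-γ in LLC and 0 for the difference of effects. Between the lines it was 2 with vehicle and 2 with IFN-γ over genes well above background on all arrays, because Pdpn and Bnc1 then have no value.

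Between the lines Msln ranged from −8.56 to −7.96 with vehicle, Pdpn from −10.65 to −6.95, Bnc1 from 3.98 to 9.79 and Thbd from 1.20 to 1.28. With IFN-γ these ranges were −9.71 to −8.15, −10.08 to −6.51, 3.78 to 9.36 and 1.31 to 1.44. Among other genes named, 3 values turned sign: Kdr between the vehicle arrays as a mean over probes (0.067), Pdgfrb in LLC with IFN-γ under normexp (0.29), and the difference of effects of Upk3bl under normexp (−0.54). The mean for Kdr takes in a probe that had no value between the vehicle arrays.

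Over all genes, those 2-fold apart with IFN-γ numbered 547 in AB1-HA against 277 under normexp, 1310 with no background filter and 327 with the stricter filter, and 690 in LLC against 273, 1378 and 391. For the difference of effects it was 508 against 206 under normexp and 2277 with no filter. Between the lines it was 4490 with vehicle and 3980 with IFN-γ, against 2898 and 2576 under normexp. The median over all genes moved by 0.15 between the vehicle arrays and −0.12 for the difference of effects under cyclic loess. Under array median scaling it moved by −0.13 between the IFN-γ arrays, −0.14 in LLC and −0.14 for the difference of effects.

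Signal over background limits Pdpn in LLC with vehicle and Bnc1 in AB1-HA to bounds and leaves Wt1, Calb2, Upk3b and Lrrn4 with no value.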
